A study of Mus musculus with 10 samples.

Results

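The data cover 37 genes of mitosis, measured in 10 RNA sequencing libraries of mouse mammary tumours. They are cyclins and kinases, spindle kinesins, kinetochore and checkpoint genes, and genes of anaphase and cytokinesis, and they were taken by symbol from a table of 37882 genes. All 37 were found once each, and all 37 passed the filter on low counts, which left 14063 genes. The tumours were orthotopic MCa-M3C tumours, from a mammary tumour line of the mouse, in FVB/N hosts, and entered treatment at about 100 mm3. In the TMA-ARB group (5 libraries, replicates 6 to 10) mice received valsartan in the TMA-ARB form at 40 mg/kg by retro-orbital injection once a day for 6 days. In the control group (5 libraries, replicates 1 to 5) they received PBS by the same route and for the same time. Valsartan blocks the angiotensin II type 1 receptor. A single cell line was used, and nothing in the labels says whether the libraries stem from different mice. The spread behind each p-value is that between libraries and may be technical.

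A cell enters mitosis when Cdk1, bound to A- and B-type cyclins, becomes active. Polo-like and Aurora kinases then help to build a bipolar spindle, kinetochores attach chromosomes to it, and checkpoint proteins hold back the anaphase-promoting complex until attachment is complete. That complex, with Cdc20, marks securin and cyclin B for destruction, sister chromatids part, and the central spindle directs the cleavage furrow. Transcripts of these genes accumulate in G2 and mitosis, so their level in a tumour extract is widely read as a measure of the dividing fraction.

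Library totals ran from 12742953 to 16884621 counts, and the lowest count of any of the 37 genes in any library was 145. The genes took 0.155 to 0.420% of the counts in TMA-ARB libraries and 0.150 to 0.281% in control libraries. Levels are given as CPM, that is, estimated counts divided by the TMM-scaled library size in units of 1e6. Of 12 epithelial markers 6 were too low to test. Cldn3, Cldn4 and Cldn7 lay at 0 to 3.39 CPM. Epcam, low but not among the 6, lay at 0.517 to 12.1 CPM in TMA-ARB tumours and 0.910 to 3.07 CPM in control tumours. Krt18, also epithelial, measured 131 ± 51.3 CPM in TMA-ARB tumours and 101 ± 30.4 CPM in control tumours (SD, n = 5 each). Of the 6 epithelial markers tested 5 were positive, against 52.8% of all genes tested, and 1 negative (median log2 fold change 0.97). In edgeR 1 was higher at an unadjusted p under 0.05 (1.59% of all genes tested) and 0 passed adjustment. All 12 summed to 187 ± 64.5 CPM in TMA-ARB tumours and 126 ± 31.2 CPM in control tumours. Of 8 fibroblast markers tested 3 were positive and 5 negative (median log2 fold change -0.16), and their summed level was 5622 ± 347 CPM in TMA-ARB tumours and 5945 ± 549 CPM in control tumours. The extracts hold tumour and host cells. A different number of dividing cells and a different level of these transcripts per dividing cell therefore cannot be told apart.

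The 37 genes varied together from library to library in both groups. The 3 highest summed levels were those of TMA-ARB libraries, and the 2 lowest came from 1 library of each group. Their summed level was highest in TMA-ARB replicates 6 and 7, at 3503 and 3422 CPM. The other TMA-ARB libraries held 1658 (replicate 8), 2704 (replicate 9) and 2163 CPM (replicate 10). Control replicates 1, 3, 4 and 5 lay close to one another, at 2670, 2618, 2462 and 2610 CPM, and control replicate 2 held 1423. The lowest library of the series was therefore a control and the next lowest, replicate 8, a TMA-ARB tumour. The highest library held 2.46 times the summed level of the lowest. TMA-ARB tumours averaged 2690 ± 797 CPM and control tumours 2357 ± 528 CPM (SD, n = 5 each), and the group medians were 2704 and 2610 CPM.

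**Figure D1:**
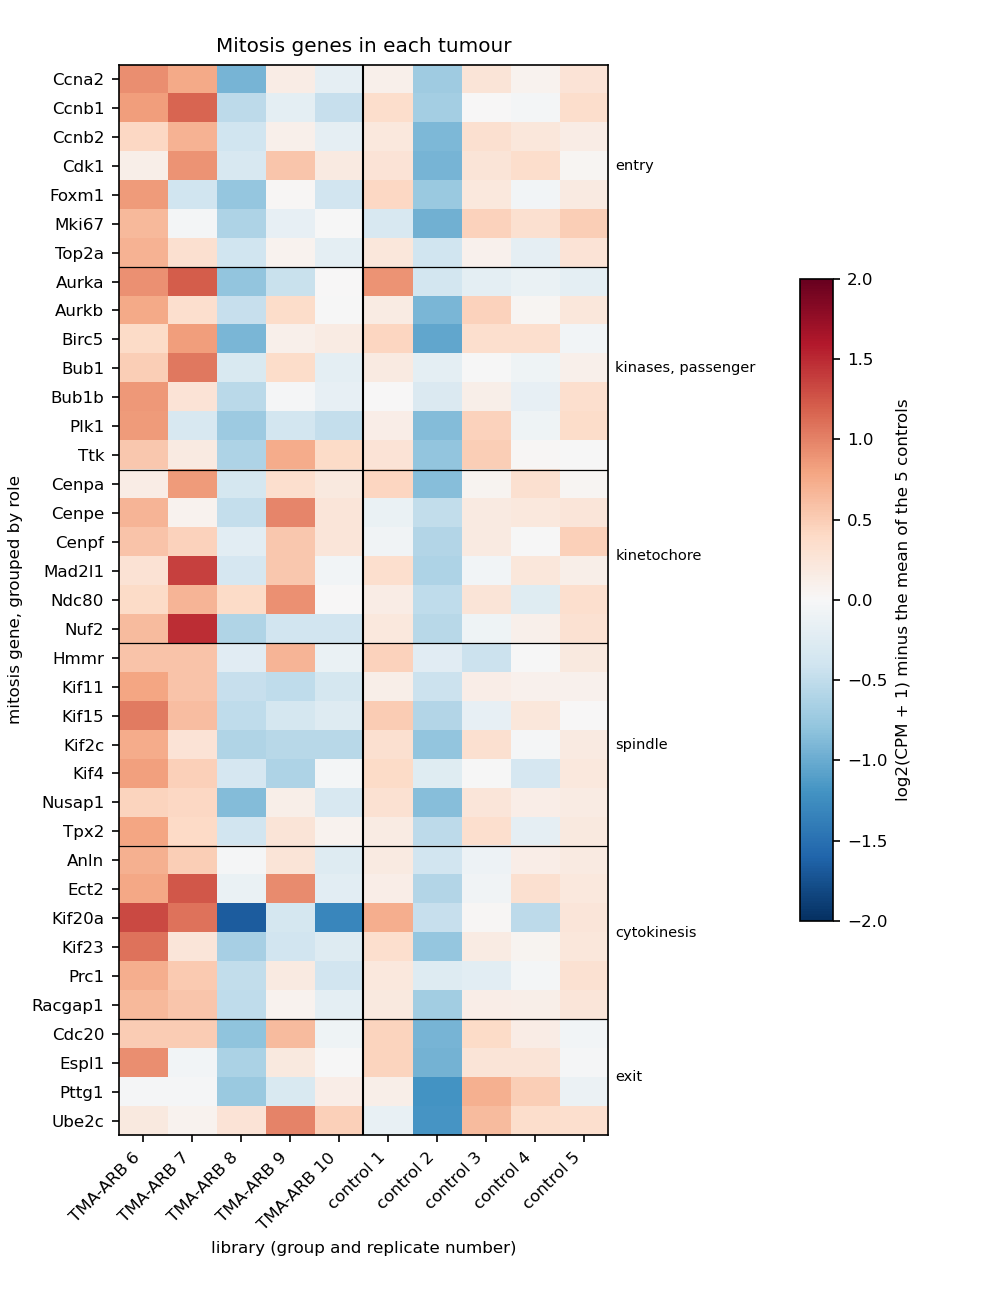
Each row is a mitosis gene and each column a library, TMA-ARB left and control right; colour gives log2(CPM + 1) minus the mean of the 5 controls. TMA-ARB replicates 6 and 7 are above that mean for most genes, with 36 and 32 of 37, while TMA-ARB replicate 8 is above it for 2 and control replicate 2 for 0.

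TMA-ARB replicate 6 or 7 was the highest library for 30 of the 37 genes, TMA-ARB replicate 9 for 6, among them Ndc80, Cenpe and Ube2c, and control replicate 3 for 1, Pttg1. Control replicate 2 or TMA-ARB replicate 8 was the lowest for 34 genes, and both were among the 3 lowest for 32. Across the 10 libraries the highest value of a gene was 2.13 to 7.89 times its lowest (median 3.04). The SD of log2(CPM + 1) had a median of 0.49 over the genes. After each library's own median deviation was subtracted it was 0.28, and it became smaller for all 37 genes. The median is taken from these same genes, so some shrinkage is built in. The first principal component of the 37 genes held 68.0% of their variance. Racgap1, which encodes a subunit of centralspindlin, followed the common pattern most closely, with an SD of 0.037 left of 0.42. Kif20a, a kinesin of the central spindle, had the most left, 0.67, but also the largest SD before, 0.97. As a share of the SD before, the most was left in Ube2c (0.55 of 0.57) and Ndc80 (0.40 of 0.41). The biological coefficient of variation estimated by edgeR had a median of 0.33 over the 37 genes and 0.32 over all genes tested. Of the 37, 15 lay below the median of all genes. Genes were not matched for expression level, so these medians do not compare variability at a like level.

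Promoter sequence is shown because mitotic genes as a class are known to share short elements near their start. The cell cycle homology region, usually written TTTGAA, binds the MuvB complex, which represses these genes in resting cells and works with B-Myb and FoxM1 in dividing ones. CCAAT boxes upstream of it bind NF-Y. RefSeq promoters on GRCm38.p6, from 250 bases before to 50 after the start, were matched by symbol for 32 of the 37 genes, giving 34 promoters. TTTGAA on either strand was present in 26 of 34 (76.5%), against 17.9% of all 32851 promoters in the same set. In the last 100 bases of the window, around the start, it was present in 24 of 34 (70.6%), against 4.94% of all. TTTAAA, another accepted form, was in 9 of 34 (26.5%, against 13.2% of all), and CCAAT on either strand in 25 of 34 (73.5%, against 37.4%). Neither form of the element overlaps CCAAT in its letters, and 24 of 34 promoters (70.6%) held CCAAT together with TTTGAA or TTTAAA, against 10.7% of all. These counts describe letters and say nothing of binding in these tumours.

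The promoters of 5 central genes follow, 5′ to 3′ on the gene's strand, with every copy of the motifs TTTGAA and TTTAAA, and of CCAAT, on either strand in capitals. The positions are chr13:100786437-100786736, minus strand for Ccnb1, chr9:70421505-70421804, minus strand for Ccnb2, chr4:118437294-118437593, minus strand for Cdc20, chr7:122159185-122159484, plus strand for Plk1 and chr10:69352863-69353162, minus strand for Cdk1. Ccnb2 has 3 CCAAT boxes with TTTGAA after them just past the start. In Cdk1 both copies of TTTGAA lie upstream of the start and all 3 CCAAT boxes read on the other strand, and in Ccnb1 the window holds TTTAAA and no TTTGAA.
Ccnb1: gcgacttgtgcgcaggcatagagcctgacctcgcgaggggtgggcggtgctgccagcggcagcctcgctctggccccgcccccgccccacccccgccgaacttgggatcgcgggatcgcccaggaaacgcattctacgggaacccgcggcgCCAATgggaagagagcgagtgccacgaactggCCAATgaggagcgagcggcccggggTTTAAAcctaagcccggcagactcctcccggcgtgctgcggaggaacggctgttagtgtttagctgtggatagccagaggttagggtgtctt
Ccnb2: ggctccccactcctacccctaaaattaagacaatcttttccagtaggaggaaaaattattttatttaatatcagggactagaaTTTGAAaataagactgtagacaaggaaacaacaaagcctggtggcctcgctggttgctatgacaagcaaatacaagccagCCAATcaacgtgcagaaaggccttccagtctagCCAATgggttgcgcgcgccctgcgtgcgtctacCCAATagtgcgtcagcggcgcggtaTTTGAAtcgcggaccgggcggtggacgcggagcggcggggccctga
Cdc20: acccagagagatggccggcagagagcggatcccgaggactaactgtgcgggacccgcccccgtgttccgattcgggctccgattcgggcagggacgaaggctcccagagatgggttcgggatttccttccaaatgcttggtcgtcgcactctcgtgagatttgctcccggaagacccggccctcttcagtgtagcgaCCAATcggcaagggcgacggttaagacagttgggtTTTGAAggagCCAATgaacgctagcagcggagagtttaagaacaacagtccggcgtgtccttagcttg
Plk1: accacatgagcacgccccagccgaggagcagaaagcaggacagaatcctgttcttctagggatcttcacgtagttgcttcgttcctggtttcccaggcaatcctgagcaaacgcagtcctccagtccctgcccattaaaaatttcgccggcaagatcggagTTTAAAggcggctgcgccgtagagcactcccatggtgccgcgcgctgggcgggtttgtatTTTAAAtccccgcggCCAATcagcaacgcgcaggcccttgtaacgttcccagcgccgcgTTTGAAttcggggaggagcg
Cdk1: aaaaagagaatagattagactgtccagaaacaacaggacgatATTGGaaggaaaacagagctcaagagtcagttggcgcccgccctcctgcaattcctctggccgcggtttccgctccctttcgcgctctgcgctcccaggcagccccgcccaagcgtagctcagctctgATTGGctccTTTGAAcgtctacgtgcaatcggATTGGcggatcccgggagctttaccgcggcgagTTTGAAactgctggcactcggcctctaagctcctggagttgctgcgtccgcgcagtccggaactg

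No mitosis gene passed the test between TMA-ARB and control tumours, given the spread between libraries. With edgeR's quasi-likelihood test and Benjamini-Hochberg adjustment over 14063 genes, 0 of the 37 were called at an adjusted p under 0.05, and neither was any other gene (0%). All 37 had an adjusted p of 0.997. At an unadjusted p under 0.05 there were 2 higher under TMA-ARB (Ndc80 and Ect2) and 0 lower, against 1.59% and 1.66% of all genes tested. DESeq2 called 0 of the 37, against 0.00834% of all genes, and limma-voom with or without sample weights called 0 of all genes. For 0 genes did all TMA-ARB libraries lie above, or all below, every control (0.164% and 0.363% of all genes). Positive log2 fold changes, meaning higher in TMA-ARB, were found for 31 of the 37 genes, against 52.8% of all genes tested. The median was 0.21, against 0.021 over all genes, and the values ran from -0.30 (Pttg1) to 0.62 (Ect2). Because the genes vary together across tumours, the 31 are not independent observations. Single libraries moved the median by more than 1.5 times. Leaving out TMA-ARB replicate 6, TMA-ARB replicate 7 or control replicate 2 brought it to 0.061, 0.098 and 0.079, in that order, and leaving out TMA-ARB replicate 8 to 0.35. Limma-voom with sample weights gave 13 positive genes (48.7% of all genes) and a median of -0.12, and without weights 30 (48.5% of all genes) and 0.15, so the direction of the list turned with the weights.

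**Figure D2:**
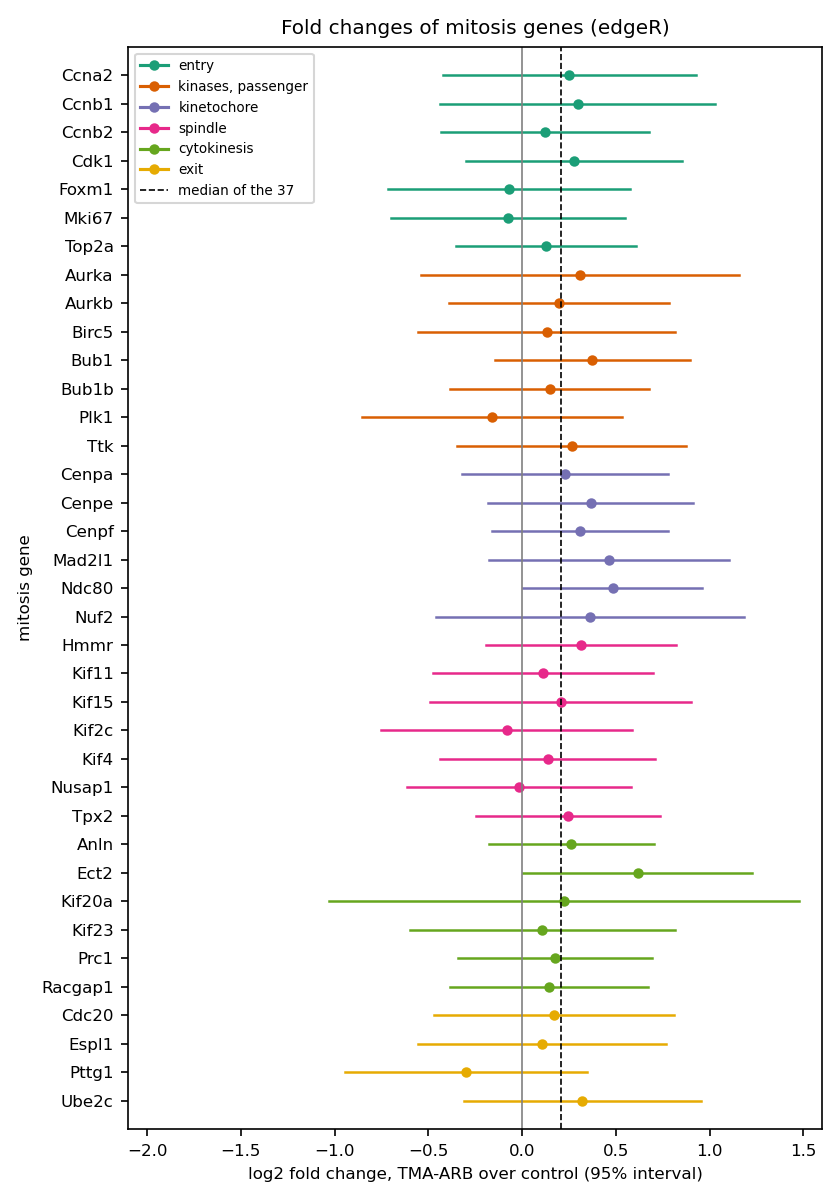
Points are log2 fold changes of TMA-ARB over control tumours from edgeR and bars their 95% intervals, with genes down the page in role groups. The values lie between -0.30 and 0.62 around a median of 0.21 (dashed), and 35 of the 37 intervals include 0.

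The 95% intervals included 0 for 35 of the 37 genes. Standard errors ran from 0.20 to 0.57 on the log2 scale (median 0.28). In counts simulated for this comparison, with 13708 genes tested, the same test recovered 4% of genes changed 1.5-fold, 18% at 2-fold and 66% at 3-fold. There the genes were drawn independently, and 50 genes were changed at each of 1.5-, 2-, 3- and 4-fold. The changed genes were picked at random from all genes tested and were not matched to the 37 in level. The recovered shares may differ for genes of other levels, for genes that vary together or where fewer genes change. The lowest bound of any gene was a ratio of 0.491 and the highest 2.78, both for Kif20a. In the simulated counts, changes of 2-fold or less in single genes were mostly not detectable with 5 libraries a group.

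Genes of mitotic entry lay on both sides of 0, with 5 of 7 positive and a median log2 fold change of 0.13. In this and the following sentences the values of a gene are in replicate order, 6 to 10 for TMA-ARB and 1 to 5 for control, and a value with ± after them is the log2 fold change with its SE. Cdk1, the kinase that drives entry, measured 217, 370.3, 159, 291 and 225 CPM in TMA-ARB tumours, against 242, 104, 239, 255 and 203 CPM in control tumours. TMA-ARB replicates 7 and 9 lay above every control, control replicate 2 was the lowest of all, and the other values of both groups overlapped. Its log2 fold change was 0.28 ± 0.27 (SE), with a 95% interval of -0.30 to 0.85. Ccnb1, its B-type cyclin, measured 105, 131, 40.1, 50.8 and 42.3 CPM in TMA-ARB tumours, against 74.8, 36.01, 58.3, 56.96 and 74.9 CPM in control tumours. Replicates 6 and 7 stood above every control and the other 3 lay below the control mean, giving 0.30 ± 0.34. The CPM ratio of Ccnb1 to Ccnb2, given for its spread and not corrected for length, was 0.870 to 1.48 in TMA-ARB tumours and 0.859 to 1.26 in control tumours.

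Mki67 encodes Ki-67, the chromosome-coating protein used in pathology as a proliferation marker. It measured 203, 126, 83.5, 116 and 129 CPM in TMA-ARB tumours, against 103, 66.1, 177, 162 and 182 CPM in control tumours, a log2 fold change of -0.074 ± 0.29 with an interval of -0.70 to 0.55. Control replicates 3, 4 and 5 were higher than 4 of the 5 TMA-ARB libraries, and replicate 6 alone exceeded them. Control replicates 1 and 2 lay well below the other 3 controls. Top2a, the topoisomerase that untangles sister chromatids, measured 401, 309, 187, 261 and 216 CPM in TMA-ARB tumours, against 289, 187, 263, 219 and 298 CPM in control tumours. The TMA-ARB values ran from the level of the lowest control to above the highest, with a log2 fold change of 0.13 ± 0.22. Ccna2 ranged from 50.7 to 188 CPM in TMA-ARB tumours and 59.2 to 119 CPM in control tumours, Ccnb2 from 40.9 to 88.8 CPM in TMA-ARB tumours and 28.7 to 67.9 CPM in control tumours, and Foxm1, a transcription factor of G2 and mitosis, from 28.9 to 90.7 CPM in TMA-ARB tumours and 29.4 to 66.7 CPM in control tumours.

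**Figure D3:**
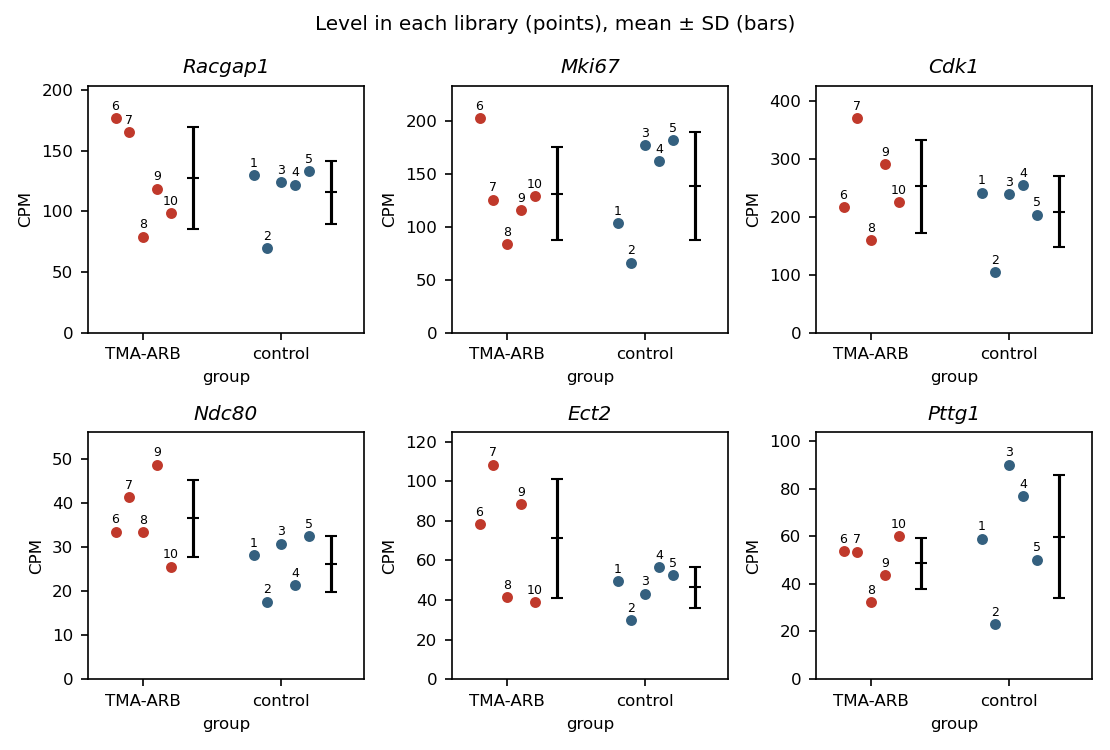
Each point is the CPM of a gene in 1 library, with its replicate number, TMA-ARB left and control right; bars give mean ± SD (n = 5). Racgap1 is shown for the common pattern, with TMA-ARB libraries between 79.2 and 177 CPM and controls between 69.7 and 133 CPM; Ndc80 and Ect2 have the smallest unadjusted p and Pttg1 the lowest fold change.

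Among the mitotic kinases and the chromosomal passenger gene Birc5, 6 of 7 had positive values, with a median of 0.20. Plk1, the polo-like kinase that acts on centrosomes, kinetochores and the cleavage site, was the exception. It measured 72.3, 31.7, 23.6, 30.4 and 28.4 CPM in TMA-ARB tumours, against 43.7, 21.3, 55.3, 37.2 and 51.3 CPM in control tumours. Replicate 6 stood far above the other TMA-ARB libraries, which lay below every control but replicate 2, and the log2 fold change was -0.16 ± 0.32 (95% interval -0.85 to 0.53). Bub1, a checkpoint kinase of the centromere, measured 52.99, 78.6, 29.9, 48.4 and 32.5 CPM in TMA-ARB tumours, against 42.2, 32.2, 37.2, 35.2 and 40.1 CPM in control tumours. The 5 controls were tightly grouped, replicates 6, 7 and 9 lay above all of them, and the value was 0.38 ± 0.24, with an unadjusted p of 0.143 and adjusted p of 0.997 (edgeR).

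Birc5 encodes survivin, which places Aurora B at centromeres. It measured 132, 181, 53.2, 108 and 113 CPM in TMA-ARB tumours, against 136, 48.4, 127, 128 and 96.7 CPM in control tumours, a log2 fold change of 0.13 ± 0.32. Aurkb, the kinase of the same complex, measured 53.5, 39.7, 22.2, 40.3 and 31.01 CPM in TMA-ARB tumours, against 35.1, 16.1, 42.96, 32.1 and 36.7 CPM in control tumours, and 0.20 ± 0.27. In both genes control replicate 2 was the lowest library and TMA-ARB replicate 8 the next. The ratio of Birc5 to Aurkb was 2.39 to 4.56 in TMA-ARB tumours and 2.63 to 3.99 in control tumours. Aurka, the Aurora kinase of centrosomes, ranged from 17.7 to 73.6 CPM in TMA-ARB tumours and 23.95 to 59.2 CPM in control tumours, Bub1b from 21.1 to 57.2 CPM in TMA-ARB tumours and 25.2 to 39.3 CPM in control tumours and Ttk, the checkpoint kinase Mps1, from 12.5 to 33.6 CPM in TMA-ARB tumours and 10.9 to 28.1 CPM in control tumours. Aurka was high in replicates 6 and 7 of TMA-ARB and in control replicate 1, at 59.2 CPM, and its other controls lay at 23.95 to 28.5 CPM.

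Kinetochore genes had the highest median of the roles, 0.36, and 6 of 6 were positive. Ndc80, the microtubule-binding subunit of the outer kinetochore (chromosome 17, 71496100 to 71526857 on GRCm38), measured 33.5, 41.3, 33.4, 48.7 and 25.5 CPM in TMA-ARB tumours, against 28.2, 17.6, 30.7, 21.4 and 32.4 CPM in control tumours. TMA-ARB replicates 7 and 9 were clearly above every control, replicates 6 and 8 just above the highest control, and replicate 10 lay among the controls. The means were 36.5 ± 8.81 CPM in TMA-ARB tumours and 26.1 ± 6.32 CPM in control tumours (SD, n = 5 each) and the log2 fold change was 0.48 ± 0.22, with a 95% interval of 0.0069 to 0.96, an unadjusted p of 0.0472 and an adjusted p of 0.997 (edgeR). Its value ran from 0.37 to 0.60 with any 1 library left out. In edgeR the unadjusted p of Ndc80 was not under 0.05 if the dropped library was replicate 1, 2, 4, 7 or 9. Nor was it under 0.05 in limma-voom with or without sample weights. Unlike most of the 37 genes, Ndc80 was not low in TMA-ARB replicate 8, and little of its spread was shared with the other genes (an SD of 0.41 before and 0.40 after the library median was subtracted). Its partner in the same complex, Nuf2, was at 40.3, 72.9, 16.5, 19.4 and 19.5 CPM in TMA-ARB tumours, against 30.04, 17.2, 24.3, 27.7 and 32.1 CPM in control tumours. The ratio of Ndc80 to Nuf2 was 0.567 to 2.51 in TMA-ARB tumours and 0.772 to 1.27 in control tumours, the widest of the 11 partner ratios examined by SD (0.64 on the log2 scale).

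Cenpe, the kinesin that carries chromosomes to the spindle equator, measured 75.6, 49.5, 33.3, 93.4 and 55.8 CPM in TMA-ARB tumours, against 42.5, 33.2, 53.1, 54.6 and 55.3 CPM in control tumours. TMA-ARB replicates 6 and 9 stood above all controls, replicate 10 level with the highest of them, and the log2 fold change was 0.37 ± 0.26. Cenpa, the histone H3 variant that marks centromeres, measured 86.7, 142, 61.1, 99.5 and 89.3 CPM in TMA-ARB tumours, against 106, 43.1, 81.6, 98 and 80.4 CPM in control tumours. Replicate 7 was the only TMA-ARB library above the highest control, and the value was 0.23 ± 0.26. Mad2l1, a checkpoint inhibitor of Cdc20, ranged from 34.2 to 114 CPM in TMA-ARB tumours and 28.1 to 55.2 CPM in control tumours, and Cenpf from 32.9 to 57.3 CPM in TMA-ARB tumours and 25.4 to 54.1 CPM in control tumours. The highest Nuf2 and Mad2l1 values came from TMA-ARB replicate 7, and the highest Ndc80 and Cenpe values from TMA-ARB replicate 9.

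Of the spindle genes 5 of 7 were positive, with a median of 0.14. Kif11, the kinesin that pushes spindle poles apart, measured 51.2, 43.6, 20.98, 20.3 and 22.7 CPM in TMA-ARB tumours, against 31.8, 21.3, 31.97, 31.1 and 31.1 CPM in control tumours. TMA-ARB tumours fell into 2 sets: replicates 6 and 7 above every control, and replicates 8, 9 and 10 near control replicate 2 and below the other controls. The log2 fold change of 0.11 ± 0.27 averages over both sets. Tpx2, a microtubule nucleation factor that activates Aurora A, measured 116, 88.7, 51.2, 79.95 and 70.2 CPM in TMA-ARB tumours, against 75.3, 46.2, 85.3, 59.1 and 77.04 CPM in control tumours, with 0.24 ± 0.23. Hmmr, a spindle protein also known as a hyaluronan receptor, measured 48.5, 48.3, 27.3, 51.9 and 29.1 CPM in TMA-ARB tumours, against 44.6, 27.4, 23.5, 32.1 and 36.9 CPM in control tumours, with 0.32 ± 0.24. For Hmmr, replicates 6, 7 and 9 lay above all controls and replicates 8 and 10 within their range. Kif2c ranged from 14.6 to 38.6 CPM in TMA-ARB tumours and 12.6 to 28.6 CPM in control tumours, Kif4 from 22.6 to 62.4 CPM in TMA-ARB tumours and 27.5 to 45.8 CPM in control tumours, Kif15 from 13.2 to 40.8 CPM in TMA-ARB tumours and 12.6 to 27.8 CPM in control tumours and Nusap1 from 19.3 to 49.2 CPM in TMA-ARB tumours and 19.6 to 44.6 CPM in control tumours.

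All 6 cytokinesis genes had positive values, with a median of 0.20. Ect2, the exchange factor that activates RhoA at the cleavage site (chromosome 3, 27097222 to 27153878 on GRCm38), had the largest fold change of the 37. It measured 78.2, 108, 41.4, 88.4 and 39.1 CPM in TMA-ARB tumours, against 49.6, 29.8, 43.2, 56.6 and 52.7 CPM in control tumours. Replicates 6, 7 and 9 lay above every control, and replicates 8 and 10 between control replicate 2 and the other controls. The means were 71.1 ± 30.2 CPM in TMA-ARB tumours and 46.4 ± 10.5 CPM in control tumours (SD, n = 5 each), with a log2 fold change of 0.62 ± 0.28, a 95% interval of 0.0054 to 1.23, an unadjusted p of 0.0483 and an adjusted p of 0.997 (edgeR). With any 1 library left out the value ran from 0.42 to 0.78. In edgeR the unadjusted p of Ect2 stayed under 0.05 only if the dropped library was replicate 4, 8 or 10. In limma-voom it was 0.632 with sample weights and 0.0926 without them. Anln, which encodes the furrow scaffold anillin, measured 183, 158, 109.8, 134 and 93.5 CPM in TMA-ARB tumours, against 127, 85.3, 104, 122 and 127 CPM in control tumours, and 0.26 ± 0.20. Replicates 6, 7 and 9 lay above every control and replicates 8 and 10 among the controls.

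Racgap1 and its centralspindlin partner Kif23 kept the closest ratio of the 11 partner pairs, 0.156 to 0.301 in TMA-ARB tumours and 0.200 to 0.241 in control tumours for Kif23 to Racgap1, with an SD of 0.26 on the log2 scale. Racgap1 ranged from 79.2 to 177 CPM in TMA-ARB tumours and 69.7 to 133 CPM in control tumours, Kif23 from 15.1 to 53.3 CPM in TMA-ARB tumours and 13.97 to 31.3 CPM in control tumours and Prc1, the microtubule bundler of the midzone, from 56.3 to 132 CPM in TMA-ARB tumours and 66.3 to 98.1 CPM in control tumours. Kif20a had the widest spread of the 37, at 93.8, 79.9, 11.01, 28.9 and 14.4 CPM in TMA-ARB tumours, against 61.7, 26.6, 37.5, 25.6 and 43.98 CPM in control tumours. TMA-ARB replicates 6 and 7 were the highest libraries of the series for it, and TMA-ARB replicates 8 and 10 the lowest.

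Genes of anaphase and mitotic exit gave 3 positive values of 4, with a median of 0.14. Cdc20, the activator of the anaphase-promoting complex, measured 104, 103, 40.8, 113 and 68.2 CPM in TMA-ARB tumours, against 98.7, 37.4, 94.4, 80.6 and 69.9 CPM in control tumours, with 0.17 ± 0.30. TMA-ARB replicate 8 and control replicate 2 were far below the rest. Ube2c, the ubiquitin-conjugating enzyme of that complex, measured 94.6, 86.4, 100.1, 165 and 116 CPM in TMA-ARB tumours, against 74.7, 36.1, 129, 106 and 104 CPM in control tumours, with 0.32 ± 0.29. Its highest library was TMA-ARB replicate 9, and its lowest was control replicate 2, and the rest of both groups overlapped. Pttg1 encodes securin, the inhibitor of separase, and had the lowest fold change of the 37. It measured 53.8, 53.5, 32.2, 43.8 and 59.9 CPM in TMA-ARB tumours, against 58.97, 23.1, 90.1, 76.8 and 50.2 CPM in control tumours. Control replicates 3 and 4 were the highest and control replicate 2 the lowest, so the controls spanned every TMA-ARB value, and the log2 fold change was -0.30 ± 0.30 (95% interval -0.94 to 0.35). Espl1, separase itself, ranged from 15.5 to 47.4 CPM in TMA-ARB tumours and 12.3 to 33.8 CPM in control tumours, and the ratio of Pttg1 to Espl1 was 1.13 to 2.44 in TMA-ARB tumours and 1.75 to 3.04 in control tumours.

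Per kilobase of the longest coding transcript in GENCODE M21, the 37 genes covered a wide range of level. The highest in control tumours was Cenpa, a short transcript, in CPM per kb at 65.3 ± 20.2 in TMA-ARB tumours and 55.8 ± 16.5 in control tumours (SD, n = 5 each). Top2a was next at 52.6 ± 16.1 in TMA-ARB tumours and 48.2 ± 9.03 in control tumours, and Cdk1 followed at 57.7 ± 18.5 in TMA-ARB tumours and 47.7 ± 14 in control tumours. These neighbours overlapped within their SDs. Mki67, a long transcript, was at 13.05 ± 4.35 in TMA-ARB tumours and 13.7 ± 5.08 in control tumours. The lowest in control tumours was Cenpf, at 4.41 ± 0.908 in TMA-ARB tumours and 3.56 ± 0.943 in control tumours, and the lowest in TMA-ARB tumours was Espl1, at 4.18 ± 1.78 in TMA-ARB tumours and 3.89 ± 1.26 in control tumours, and both overlapped within their SDs. Salmon's own lengths were not used here, so the order among neighbours may shift with the isoforms expressed. Near-identical transcripts of other genes (at least 95% identity over 300 bases) were found for 4 of the 37. Ccnb1 has a processed pseudogene of 99.2% identity that held 3 counts over all libraries, against 10093 for Ccnb1. A 303-base stretch of Ndc80 matches 2700099C18Rik at 95.05%, and that gene held 2883 counts against 4531 for Ndc80, so part of the Ndc80 counts is uncertain. The others were Mad2l1 and Racgap1, each with a processed pseudogene.

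Other genes of division varied in the same way over the tumours. Of 89 further mitosis genes tested, 68 were positive (52.8% of all genes tested) with a median log2 fold change of 0.24. None passed (0 at an adjusted p under 0.05), and 4 were higher and 0 lower at an unadjusted p under 0.05 in edgeR, against 1.59% and 1.66% of all genes tested. These shares over all genes also hold for the lists that follow. The 4 included Cks2, a Cdk-binding subunit, at 83.1 ± 61.1 CPM in TMA-ARB tumours and 39.3 ± 14.7 CPM in control tumours (log2 fold change 1.08 ± 0.44, SE), Kif18a, a kinesin that limits chromosome movement, at 21.3 ± 7.47 CPM in TMA-ARB tumours and 12.7 ± 3.63 CPM in control tumours (log2 fold change 0.74 ± 0.28, SE), and Smc4, a condensin subunit, at 286 ± 100.2 CPM in TMA-ARB tumours and 195 ± 33.6 CPM in control tumours (0.56 ± 0.23). Of 47 S phase genes 45 were positive, with a median of 0.29, 0 passing and 2 higher at an unadjusted p under 0.05 (1.59% of all genes), Prim2 (0.54 ± 0.22) and Pole (0.61 ± 0.28). The 14 core subunits of the anaphase-promoting complex, whose transcripts are not known for strong cell cycle control, had a median of 0.017 with 8 positive and 0 at an unadjusted p under 0.05. MuvB, B-Myb and DREAM factors had a median of 0.094, with 11 of 13 positive and 1 higher at an unadjusted p under 0.05, Rbl1 (0.57 ± 0.25). Of 10 G1 genes 8 were positive, with a median of 0.21 and 1 higher at an unadjusted p under 0.05, Cdk2 (0.39 ± 0.18). None of the S phase, MuvB or G1 genes passed (0 at an adjusted p under 0.05). Of 14 cell cycle inhibitors 5 were positive and 9 negative (median -0.086). Btg2, an antiproliferative gene, was at 15.7 ± 3.14 CPM in TMA-ARB tumours and 26.4 ± 11.2 CPM in control tumours, a log2 fold change of -0.75 ± 0.27, and was the only one at an unadjusted p under 0.05. Cdkn1a, which encodes p21, was at 25.7 ± 11.7 CPM in TMA-ARB tumours and 43.8 ± 26.6 CPM in control tumours (-0.77 ± 0.38). Neither passed.

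**Figure D4:**
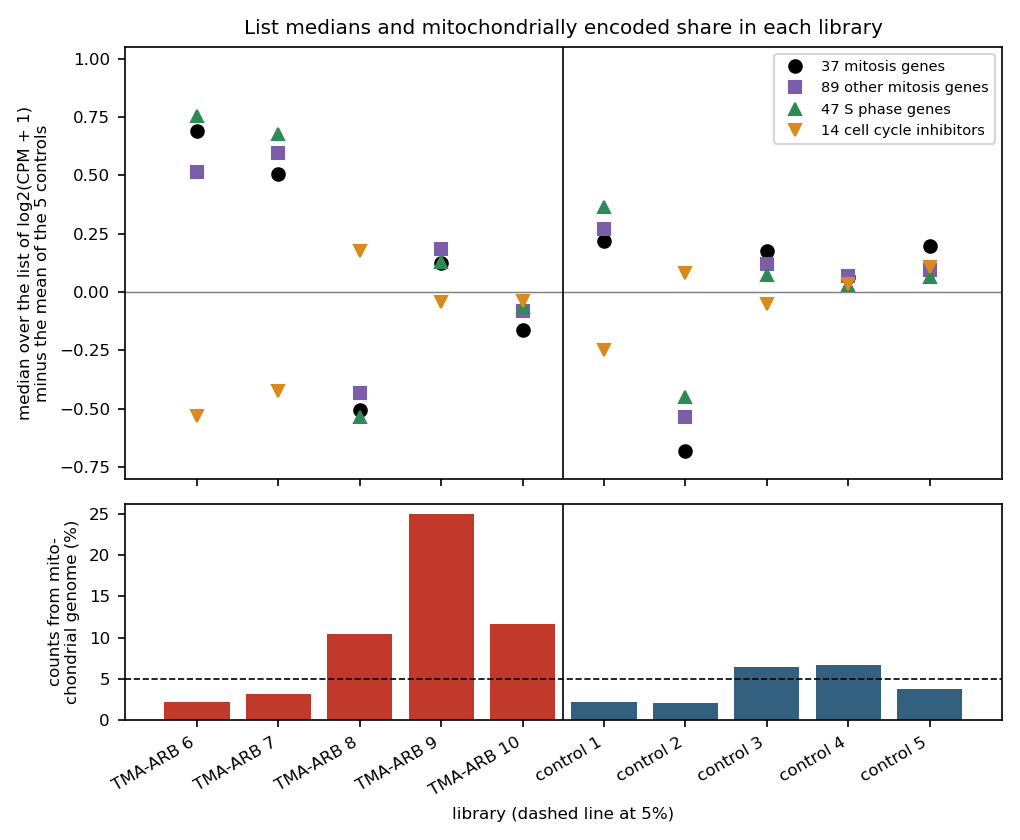
The upper panel gives, for each library, the median over a gene list of log2(CPM + 1) minus the mean of the 5 controls; the lower panel gives the percentage of counts from mitochondrially encoded genes, with a dashed line at 5%. In TMA-ARB replicates 6 and 7 the mitosis and S phase lists are high (0.69 and 0.51 for mitosis) and inhibitors low (-0.53 and -0.42); in TMA-ARB replicate 8 and control replicate 2 mitosis genes are at -0.51 and -0.68.

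Set against the control mean, the median mitosis gene was at 0.69, 0.51, -0.51, 0.12 and -0.16 in TMA-ARB replicates 6 to 10. In control replicates 1 to 5 it was at 0.22, -0.68, 0.18, 0.065 and 0.20. The median S phase gene was at 0.75, 0.68, -0.53, 0.13 and -0.066 in the TMA-ARB libraries, and at 0.36, -0.45, 0.071, 0.032 and 0.064 in the controls. Both lists placed TMA-ARB replicates 6 and 7 highest and TMA-ARB replicate 8 and control replicate 2 lowest.

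Markers of other cells also differed between these libraries. The median epithelial marker, of the 6 tested, was at 2.12 in TMA-ARB replicate 6 and 1.09 in TMA-ARB replicate 8, and between -0.44 and 0.25 in the other TMA-ARB libraries. In controls it ran from -0.40 to 0.47. TMA-ARB replicate 6 was the highest library for the summed mitosis genes and TMA-ARB replicate 8 the next to lowest. The epithelial median rests on 6 markers, with a median biological coefficient of variation of 0.63, against 0.32 over all genes tested. Summed leukocyte markers ran from 267 to 501 CPM in TMA-ARB tumours and 356 to 636 CPM in controls. Of 12 tested 11 were lower in TMA-ARB by sign (6635 of all 14063 genes), with a median log2 fold change of -0.55. In edgeR 2 of them were lower at an unadjusted p under 0.05 (1.66% of all genes tested) and 0 passed. Summed fibroblast markers ran from 5172 to 6083 CPM in TMA-ARB tumours and 5016 to 6434 CPM in controls. Of 8 endothelial markers 2 were positive, with a median log2 fold change of -0.31, and of 4 muscle markers 0, with a median of -1.60. In each of these lists 2 were lower at an unadjusted p under 0.05 in edgeR (1.66% of all genes tested) and 0 passed. The part of these cells in the mitosis values was not tested.

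The median fold change of the mitosis genes had opposite signs in libraries of low and high mitochondrially encoded share, the percentage of a library's counts on genes of the mitochondrial genome. That share was 2.22% and 3.18% in TMA-ARB replicates 6 and 7, and 10.5%, 24.97% and 11.7% in TMA-ARB replicates 8, 9 and 10. It was 2.15%, 2.07% and 3.75% in control replicates 1, 2 and 5, and 6.37% and 6.63% in control replicates 3 and 4. Among the libraries below 5%, 37 of 37 mitosis genes were positive (50% of all genes there), with a median log2 fold change of 0.60. Among those above 5%, 8 of 37 were positive (50.9% of all genes), with a median of -0.26. No mitosis gene passed on either side (0% of all genes below the line and 0.027% above it): 11 were higher at an unadjusted p under 0.05 below the line (3.79% of all genes) and 7 lower above it (3.51%), in edgeR.

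Leaving out control replicate 2, the lowest library, gave a median of 0.39 below the line, with 36 positive (50.8% of all genes). Leaving out TMA-ARB replicate 8 gave -0.082 above the line, with 15 positive (50.4% of all genes). The change of the effect between the sides was tested as an interaction in 1 edgeR fit. It was negative for 37 of 37 genes (49.1% of all genes), with a median of -0.93 on the log2 scale. Because the genes vary together across tumours, the 37 are not independent observations, here or in the counts on each side of the line. Of the 37, 0 passed adjustment (0.0711% of all genes), with a smallest adjusted p of 0.239 for Kif11, and 15 had an unadjusted p under 0.05 (10.6% of all genes). Kif11 had a log2 fold change of 0.76 below the line and -0.57 above it. The smallest interactions, chosen after their values were seen, were those of Hmmr (0.42 below and 0.36 above) and Ndc80 (0.52 and 0.45). Other genes of the same roles changed sign between the sides, such as Nuf2 (1.10 and -0.50) and Kif2c (0.58 and -0.78). With the log2 share as a covariate over all 10 libraries, 34 genes were positive (49.7% of all genes) with a median of 0.27. Without the 3 TMA-ARB libraries above a 10% share, 36 were positive (48.5% of all genes) with a median of 0.55, 0 passed (0%) and 18 were higher at an unadjusted p under 0.05 (5.37% of all genes). Whether the mitochondrially encoded share bears on the mitosis values was not tested beyond these fits. The sides hold 2 or 3 libraries of each group, and the 2 TMA-ARB libraries below the line are the highest of the series for these genes.

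**Figure D5:**
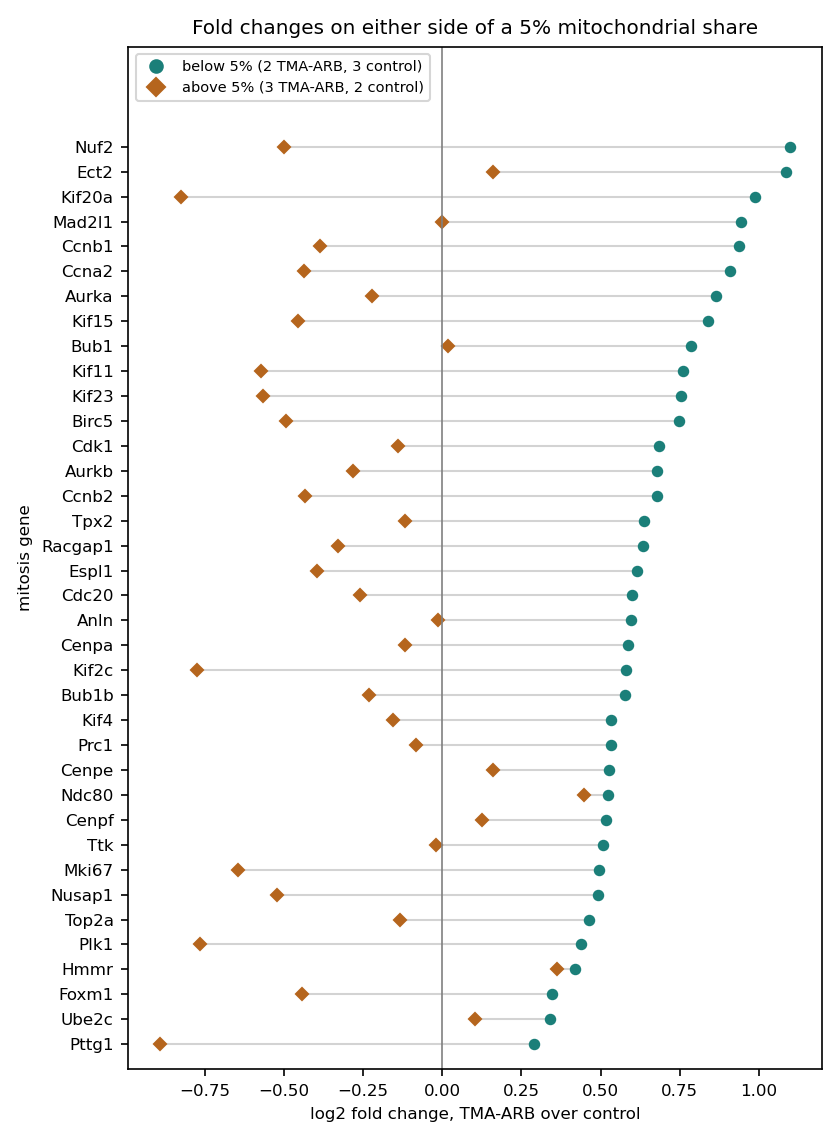
For each mitosis gene, the log2 fold change of TMA-ARB over control is given for libraries below a 5% mitochondrially encoded share (circles; 2 TMA-ARB and 3 control) and above it (diamonds; 3 TMA-ARB and 2 control). All circles are above 0, with a median of 0.60, and 8 of 37 diamonds are, with a median of -0.26.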

How the data were processed

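Gene-level estimated counts, 1 column per library, were deposited by the authors and made with Salmon on the mm10 build, per the submitters' processing notes; the version, annotation and strand setting are not given in the sources used here. Poly-A RNA was made into directional libraries, per the labels' protocols. All values were whole numbers (0 were not), so rounding changed none, and 0 columns were left unmatched.

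Groups came from the sample titles. Counts were tested with edgeR 4.0.16 (R 4.3.3) by the robust quasi-likelihood F test, with TMM scaling, the default expression filter and Benjamini-Hochberg adjustment at 0.05 over all 14063 genes; a fold change is that of TMA-ARB relative to control. The SE is the absolute log2 fold change over the square root of F, and 95% intervals use the t distribution and cover the spread between libraries. Library deviations use log2(CPM + 1). DESeq2 1.42.0 and limma 3.58.1 gave alternatives. The quasi-likelihood test was also run on simulated data with known changes. Transcript lengths and coordinates came from GENCODE M21, near-identical transcripts from BLAST+ 2.17.0, promoters from RefSeq (GRCm38.p6), and figures from Python 3.11.15 with matplotlib 3.10.9.

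The 37 genes, the other lists and the settings were chosen with earlier results of these data known. Values in every library and fold changes are given for 7 listed genes, the gene of highest CPM and of smallest p in each role, and Pttg1, chosen after its values were seen; Kif20a, Nuf2 and Racgap1 values per library were also added then. Settings added after seeing the data were limma-voom without weights, leaving out the lowest libraries (control replicate 2 and TMA-ARB replicate 8), each also within its side of the 5% line, and the interaction test. No paired analysis was possible because the groups share no replicate numbers.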

Additional observations from a re-analysis of the deposited data

Results flagged for a closer look

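In groups of 5 libraries, a value was noted when its gap to the nearest other value was more than 0.71 of the group's range, Dixon's limit for 5; chance does this in about 1 of 20 groups. Over the 37 genes and their sum, in 2 groups each, 8 of 76 groups held such a value, and the genes are not independent.

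Control replicate 2 was the low value in 6 of them. Its summed level was 1423 CPM, against 2462 to 2670 in the other controls. It was at 59.2 CPM for Ccna2 (others 102 to 119), 28.7 for Ccnb2 (60.5 to 67.9), 21.3 for Kif11 (31.1 to 32.0), 19.6 for Nusap1 (39.7 to 44.6) and 69.7 for Racgap1 (122 to 133).

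TMA-ARB replicate 6 held 72.3 CPM of Plk1, against 23.6 to 31.7 in the other TMA-ARB libraries. Control replicate 1 held 59.2 CPM of Aurka, against 24 to 28.5 in the other controls.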

How the results depend on the processing

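Scaling, filtering and the mitochondrially encoded genes made little difference: with RLE scaling, no filter or those genes left out, the mitosis genes' median log2 fold change was 0.22, 0.23 and 0.22. No mitosis gene was called under any setting run in edgeR, DESeq2 or limma-voom. DESeq2 called 2 of all genes, 4 genes were called above a 5% mitochondrially encoded share (1 without TMA-ARB replicate 8) and 2 below it without control replicate 2. Over the alternatives the sign of a mitosis gene's fold change reversed in 113 of 851 values; the cause was not tested.

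The median was 0.60 below a 5% share. It was -0.26 above it with 8 positive, and -0.082 there without TMA-ARB replicate 8 with 15 positive. With limma-voom sample weights it was -0.12 with 13 positive. The lowest weights were 0.352, for TMA-ARB replicate 7, and 0.427, for TMA-ARB replicate 6, the libraries of highest summed mitosis level. The highest were 2.53, for control replicate 5, and 2.38, for TMA-ARB replicate 10. Without both control replicate 2 and TMA-ARB replicate 8 the median was 0.21. With 1 library left out the median ran from 0.061 to 0.35.

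The sign turned for 23 of the 37 genes above the 5% share (16 without TMA-ARB replicate 8), 6 below it (5 without control replicate 2), 18 with sample weights and 5 without the TMA-ARB libraries above a 10% share. Values that turned are given here only for the genes whose fold changes the report names. Above the 5% share these were Anln -0.013, Aurkb -0.28, Birc5 -0.49, Ccnb1 -0.39, Cdc20 -0.26, Cdk1 -0.14, Cenpa -0.12, Kif11 -0.57, Top2a -0.13 and Tpx2 -0.12. Without TMA-ARB replicate 8 they were Aurkb -0.079, Birc5 -0.21, Ccnb1 -0.31, Kif11 -0.55 and Top2a -0.017. Below the share they were Mki67 0.49, Plk1 0.44 and Pttg1 0.29, and without control replicate 2 Mki67 0.21 and Plk1 0.15. With sample weights they were Anln -0.034, Aurkb -0.029, Birc5 -0.020, Ccnb1 -0.29, Cdc20 -0.039, Kif11 -0.26 and Top2a -0.14. Without the TMA-ARB libraries above a 10% share Mki67 was 0.26 and Plk1 0.33. With 1 library left out the range crossed 0 for 18 of the 37 genes, and among the named ones for Mki67 -0.28 to 0.062, Top2a -0.043 to 0.25, Ccnb1 -0.00079 to 0.46, Cdc20 -0.0043 to 0.35, Birc5 -0.068 to 0.33 and Kif11 -0.13 to 0.25. Counts were 145 or more per gene and library, and the number of libraries limits these values.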
